A study of Mus musculus with 6 samples.

Results

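*Kmt2a*, *Kmt2b*, *Kmt2c*, *Kmt2d*, *Kmt2e*, *Setd1a* and *Setd1b*, the 7 genes of the mouse Kmt2 and Setd1 histone methyltransferase family, were followed in Tfh cells together with *Kdm6a*, whose protein shares a complex with those of *Kmt2c* and *Kmt2d*. These 8 genes, of 53379 listed for each library, were picked by family name, and they were selected on a comparison whose fold changes were already known, so their own values are given as a description without a test. Tfh cells, the CD4+ T cells that help B cells in the germinal center, had been sorted from spleen as live TCRβ+ CD4+ CXCR5+ PD1+ cells. The 3 mice of the *Prdm1*-CKO group were *Prdm1* fl/fl; CD11c-CRE+, which removes BLIMP-1 from dendritic cells with high CD11c and not from the Tfh cells that were sequenced. The 3 CTL mice were *Prdm1* fl/fl; CD11c-CRE- or *Prdm1* +/+; CD11c-CRE+, and which mouse had which of these genotypes is not given. All 6 mice were females of 6 to 8 weeks, immunized with NP-CGG in CFA and examined on day 7, and each gave 1 Smart-seq2 library. The labels call the *Prdm1*-CKO group a knockout in 1 field and a knockdown in another.

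The SET domain proteins of this family add methyl groups to lysine 4 of histone H3 within COMPASS complexes, which share the core subunits *Wdr5*, *Rbbp5*, *Ash2l* and *Dpy30*. *Kmt2a* and *Kmt2b* act with menin at the promoters of selected genes, *Kmt2c* and *Kmt2d* place the monomethyl mark of enhancers in a complex that also holds the H3K27 demethylase *Kdm6a*, and *Setd1a* and *Setd1b* place the trimethyl mark at active promoters in general. *Kmt2e* keeps a SET domain, has no clear methyltransferase activity of its own and reads the trimethyl mark through a PHD finger. In T helper cells, menin and *Kmt2a* are known for keeping cytokine genes active in memory cells.

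*Kmt2d* had the lowest log2 fold change of the 8 genes and no overlap between the groups, and its nearest paralog *Kmt2c* had an overlap, so the promoters of this pair are printed. They are the 250 bases before the RefSeq start on GRCm38.p6, read along the minus strand, at chr15:98871206-98871455 for *Kmt2d* and chr5:25498784-25499033 for *Kmt2c*. Capitals mark the GC box core GGGCGG, the ETS core CCGGAA or the CCAAT box on either strand, and matches may overlap.
Kmt2d: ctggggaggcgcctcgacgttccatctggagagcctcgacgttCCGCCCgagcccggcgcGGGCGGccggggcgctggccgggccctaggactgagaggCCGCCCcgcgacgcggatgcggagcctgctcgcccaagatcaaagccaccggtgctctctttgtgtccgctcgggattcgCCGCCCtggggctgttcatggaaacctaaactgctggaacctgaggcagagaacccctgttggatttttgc
Kmt2c: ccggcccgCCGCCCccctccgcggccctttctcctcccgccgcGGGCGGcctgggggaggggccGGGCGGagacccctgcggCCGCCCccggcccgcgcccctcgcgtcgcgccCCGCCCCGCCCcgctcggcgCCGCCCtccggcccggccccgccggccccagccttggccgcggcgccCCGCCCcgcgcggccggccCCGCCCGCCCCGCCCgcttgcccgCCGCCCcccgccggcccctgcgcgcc
Both hold GC box cores, 4 in *Kmt2d* and 12 in *Kmt2c*, and neither holds one of the other motifs. The GC content was 67.6% with 26 CpG sites for *Kmt2d* and 91.6% with 48 CpG sites for *Kmt2c*, against a median of 6 CpG sites over 32851 promoters. Of those promoters, 32.7% held GGGCGG, 12% held CCGGAA and 33.8% held CCAAT. RefSeq promoters were given for 5 of the 8 genes.

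Total counts lay between 7147601 and 16973392 per library, and 3 counts, the floor used here, came to 0.169 to 0.444 CPM, a scale that divides counts by TMM-adjusted library size. CTL replicate 2 stood apart from the other libraries, at 134.6 on the first principal component against -29.1 to -24.0, with 16650 genes with a count against 18480 to 21501. The Tfh markers *Cxcr5*, *Pdcd1* and *Bcl6* were detected in all mice. The summed level of 10 Tfh markers was 3477 to 4518 CPM in CTL and 3489 to 3680 CPM in *Prdm1*-CKO mice. Their log2 fold changes went from -0.29 for *Cd4* to 0.07 for *Il21*. In 1 of the 10, *Cd4*, the groups did not overlap, at 896, 1061 and 1031 CPM in CTL and 823, 774 and 847 CPM in *Prdm1*-CKO mice. *Prdm1* was at 28.8 ± 1.23 CPM (SD, n = 3) in CTL and 30.6 ± 0.374 CPM (SD, n = 3) in *Prdm1*-CKO Tfh, a log2 fold change of 0.09, and since the deletion lies in dendritic cells this does not check the labels. In edgeR's quasi-likelihood test with Benjamini-Hochberg adjustment, 0 of 14555 genes (0.00%) had an adjusted p under 0.05, and DESeq2 called 7 that were higher and 2 that were lower. Before adjustment, 207 genes had a p under 0.05 in edgeR and were lower (1.42%) and 135 were higher (0.928%), a balance that turned to 155 lower and 163 higher with library totals in place of TMM.

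All 8 genes passed the filter on low counts and had a log2 fold change below 0 in *Prdm1*-CKO Tfh, as did 48.9% of all genes tested. Their median log2 fold change was -0.36, and it was 0.01 over all genes. Without CTL replicate 2 the median was -0.07. In *Kmt2d* and *Kmt2e*, 2 of the 8, every *Prdm1*-CKO mouse lay below every CTL mouse, against 3.86% of all genes, and in 0 of the 8 every *Prdm1*-CKO mouse lay above, against 4.56%. The mean centred log2 CPM of the 8 genes was 0.09, 0.50 and -0.10 over the CTL mice, in replicate order, and -0.35, 0.16 and -0.30 over the *Prdm1*-CKO mice. CTL replicate 2 was the highest on this mean, and *Prdm1*-CKO replicate 2 lay above both other CTL mice, so the groups overlapped on it. In a bulk sample, fewer cells of a type and less RNA per cell cannot be told apart.

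**Figure D1:**
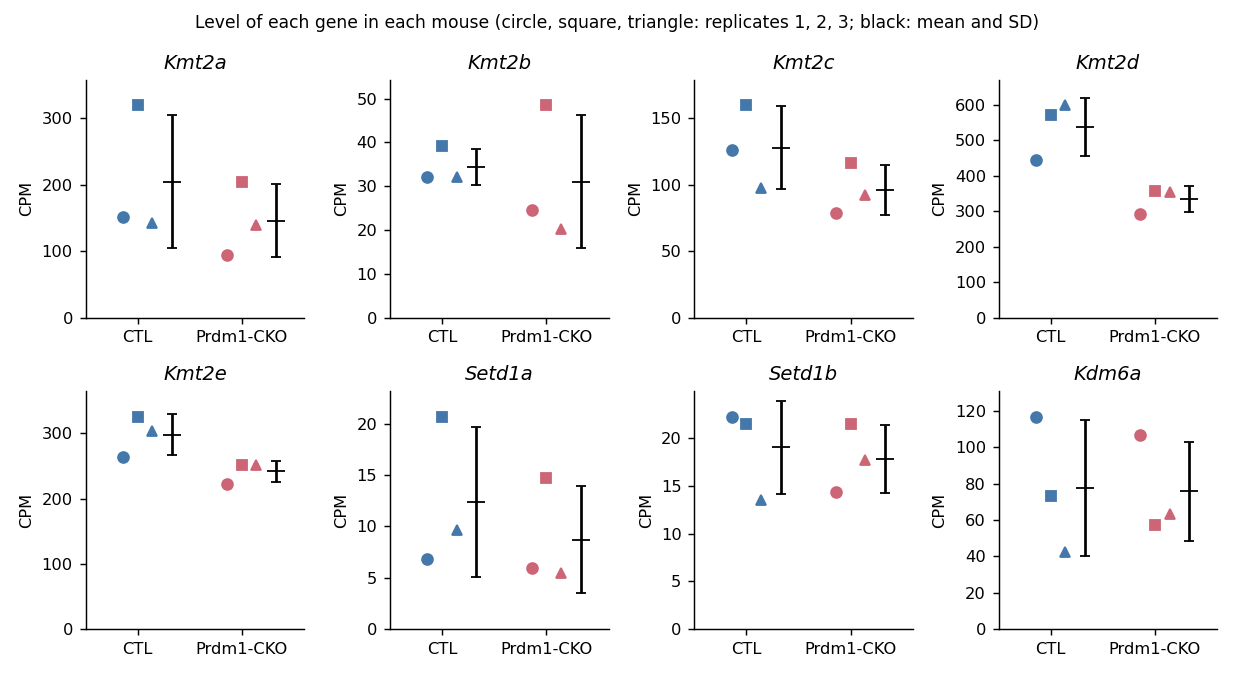
Level of each of the 8 genes in CPM (vertical axes, each starting at 0) in the 3 CTL mice (blue) and the 3 *Prdm1*-CKO mice (red), with circles, squares and triangles for replicates 1, 2 and 3 and the group mean and SD in black. The groups do not overlap for *Kmt2d* and *Kmt2e*, and they overlap for the other 6 genes.

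*Kmt2d*, the enhancer methyltransferase also known as MLL4, is found on the minus strand of chromosome 15 in GRCm38, between 98831669 and 98871204, with 19931 exonic bases. Its levels, here and for the other genes in replicate order, were 446, 572 and 599.5 CPM in CTL mice and 293, 358 and 353 CPM in *Prdm1*-CKO mice. The lowest CTL mouse was above the highest *Prdm1*-CKO mouse, and *Prdm1*-CKO replicate 1 was the lowest of all. The means were 539 ± 81.9 CPM (SD, n = 3) in CTL and 335 ± 36.5 CPM (SD, n = 3) in *Prdm1*-CKO Tfh, 38.0% lower, and the log2 fold change was -0.69 (standard error 0.16). These levels rest on 3522 to 6511 counts per library. With any 1 mouse left out, the log2 fold change stayed between -0.82 and -0.60.

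*Kmt2c*, the paralog MLL3, lies on chromosome 5 from 25271798 to 25498783 on the minus strand, with 20291 exonic bases, close in length to *Kmt2d*. Its levels were 126, 159.8 and 97.2 CPM in CTL mice and 78.8, 116 and 92.5 CPM in *Prdm1*-CKO mice. CTL replicate 2 was the highest and *Prdm1*-CKO replicate 1 the lowest, and *Prdm1*-CKO replicate 2 lay above CTL replicate 3. Means of 128 ± 31.3 CPM (SD, n = 3) and 95.8 ± 18.8 CPM (SD, n = 3) gave a log2 fold change of -0.42 (standard error 0.23), which was -0.24 without CTL replicate 2. *Kdm6a*, the X-linked demethylase of the same complex, was at 117, 73.2 and 42.6 CPM in CTL and 107, 57.0 and 63.3 CPM in *Prdm1*-CKO mice. Replicate 1 was the highest mouse in both groups, and the spread within a group was wider than the difference between them. Its log2 fold change was -0.04 (standard error 0.38), with a range from -0.36 to 0.38 when each mouse was left out. The gene lies on chromosome X from 18162575 to 18279936. Its Y-linked paralog *Uty* had 0 counts in all 6 libraries of these female mice, as did *Kdm5d*.

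*Kmt2a*, or MLL1, whose complex with menin maintains Hox genes, lies on chromosome 9 from 44803355 to 44881296 with 16670 exonic bases. Its levels were 151, 319 and 142 CPM in CTL and 94.4, 203 and 139 CPM in *Prdm1*-CKO mice. Replicate 2 was far above the other mice in each group, and *Prdm1*-CKO replicate 2 exceeded CTL replicates 1 and 3. The log2 fold change of -0.49 (standard error 0.37) came to -0.02 without CTL replicate 2 and to -0.80 without *Prdm1*-CKO replicate 2. *Kmt2b*, its paralog on chromosome 7 from 30568858 to 30588726, was at 32.1, 39.2 and 32.1 CPM in CTL and 24.6, 48.5 and 20.1 CPM in *Prdm1*-CKO mice. *Prdm1*-CKO mice held both the highest and the lowest level, and the log2 fold change was -0.15 (standard error 0.34). It ran from -0.62 to 0.08 with each mouse left out.

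Over the full exonic length, *Setd1a* and *Setd1b* had the lowest levels per kb of the family. *Setd1a*, on chromosome 7 from 127776670 to 127800122, rested on 100, 175 and 65 counts in the CTL libraries and on 106, 145 and 79 counts in the *Prdm1*-CKO libraries, or 6.85, 20.7 and 9.62 CPM and 5.97, 14.7 and 5.41 CPM. Replicate 2 was the highest mouse of each group and the groups overlapped. Its log2 fold change of -0.51 (standard error 0.55) turned to 0.06 without CTL replicate 2. Of its 6795 exonic bases, 51.8% also belong to exons of *Gm49388* on the same strand, which had 0 counts in all libraries. Reads in the shared bases may not have been counted for either gene. The level of *Setd1a* per kb may then be too low, so its level and its rank are uncertain. *Setd1b*, on chromosome 5 from 123142193 to 123168629, was at 22.3, 21.4 and 13.5 CPM in CTL and 14.4, 21.5 and 17.7 CPM in *Prdm1*-CKO mice. The *Prdm1*-CKO range lay within the CTL range, and the log2 fold change was -0.10 (standard error 0.29).

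*Kmt2e*, or MLL5, lies on chromosome 5 from 23434441 to 23504235 on the plus strand. It was at 264, 326 and 304 CPM in CTL and 223, 251 and 251 CPM in *Prdm1*-CKO mice. All CTL mice were above all *Prdm1*-CKO mice, with CTL replicate 1 the closest to them. Means of 298 ± 31.4 CPM (SD, n = 3) and 242 ± 16.4 CPM (SD, n = 3) differed by 18.8%, a log2 fold change of -0.30 (standard error 0.14). *Srpk2* on the opposite strand shares 972 exonic bases, or 9.31% of those of *Kmt2e*, and since the strand setting of the counting is not given in the sources used here, reads in these bases cannot be assigned. *Srpk2* itself had a log2 fold change of -0.11. Opposite-strand genes also overlap 2.27% of *Kmt2a* (*AC061963.1*, at most 6 counts in a library) and 1.35% of *Kmt2c* (*Gm42585*, at most 32 counts in a library).

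Levels were compared between genes in CPM per kb of exon. *Kmt2e* was the highest in CTL Tfh, at 28.5 ± 3.01 CPM per kb (SD, n = 3), followed by *Kmt2d* at 27.1 ± 4.11 CPM per kb (SD, n = 3), and these ranges overlapped. In *Prdm1*-CKO Tfh they were at 23.2 ± 1.57 and 16.8 ± 1.83 CPM per kb (SD, n = 3) and did not overlap. On this scale *Kmt2e* was above *Kmt2d* in 5 of 6 mice, and *Kmt2d* was first in CTL replicate 3. *Kmt2a* and *Kdm6a* came next and exchanged places between mice, at 12.2 and 9.26 CPM per kb in CTL and 8.73 and 9.04 CPM per kb in *Prdm1*-CKO Tfh. *Kmt2c* followed at 6.30 and 4.72 CPM per kb and *Kmt2b* at 3.59 and 3.24 CPM per kb, an order found in all 6 mice. *Setd1a*, at 1.82 and 1.28 CPM per kb, and *Setd1b*, at 1.58 and 1.48 CPM per kb, came last and exchanged places between mice. The place of *Setd1a* is uncertain because of the bases it shares with *Gm49388*. Part of this order depends on the length used. Per kb of the longest transcript, CTL means were 40.7 CPM for *Kmt2e* and 27.2 CPM for *Kmt2d*. There *Kdm6a*, at 13.1, was above *Kmt2a*, at 12.4, and *Setd1b*, at 2.15, was above *Setd1a*, at 1.91.

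Ratios of these levels within a mouse compared the paralogs directly. *Kmt2d* over *Kmt2c* was 3.59, 3.65 and 6.28 in CTL and 3.78, 3.14 and 3.89 in *Prdm1*-CKO mice, where CTL replicate 3 alone stood out. *Kmt2a* over *Kmt2b* was 2.70, 4.69 and 2.55 in CTL and 2.21, 2.41 and 3.97 in *Prdm1*-CKO mice, and *Setd1a* over *Setd1b* was 0.546, 1.72 and 1.27 against 0.738, 1.22 and 0.544. In each of these paralog pairs the groups overlapped. The size of the *Setd1a* over *Setd1b* ratio is uncertain, as the level of *Setd1a* is. *Kmt2d* over *Kmt2e* was 0.886, 0.921 and 1.03 in CTL and 0.688, 0.747 and 0.736 in *Prdm1*-CKO mice, and here all *Prdm1*-CKO mice were below all CTL mice. Of 8 ratios formed, this was the 1 that separated the groups, and both of its genes had groups apart in CPM. *Kmt2d* over *Kmt2a*, *Kmt2d* over *Kdm6a*, *Kmt2c* over *Kmt2e* and *Kmt2c* over *Kmt2a* overlapped. How often ratios of other genes separate the groups was not computed, so this count has no background beside it.

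Long transcripts as a class had log2 fold changes below 0. When genes were ordered by exonic length and divided into 5 bins of equal number, the median log2 fold change went from 0.09 in the shortest to -0.11 in the longest, and the share of genes below 0 from 40.3% to 64.2%. With 10 bins, the longest, from 9177 bases up, which holds *Kmt2a*, *Kmt2b*, *Kmt2c*, *Kmt2d*, *Kmt2e* and *Setd1b*, had a median of -0.15, and 68.8% of genes were below 0. The gap between the longest and the shortest bin in median centred log2 CPM was 0.16, 0.43 and -0.28 in the CTL libraries and -0.05, -0.18 and -0.08 in the *Prdm1*-CKO libraries. CTL mice held both extremes, and the trend of -0.20 in the fold change went to -0.04 without CTL replicate 2 and to -0.37 without CTL replicate 3.

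**Figure D2:**
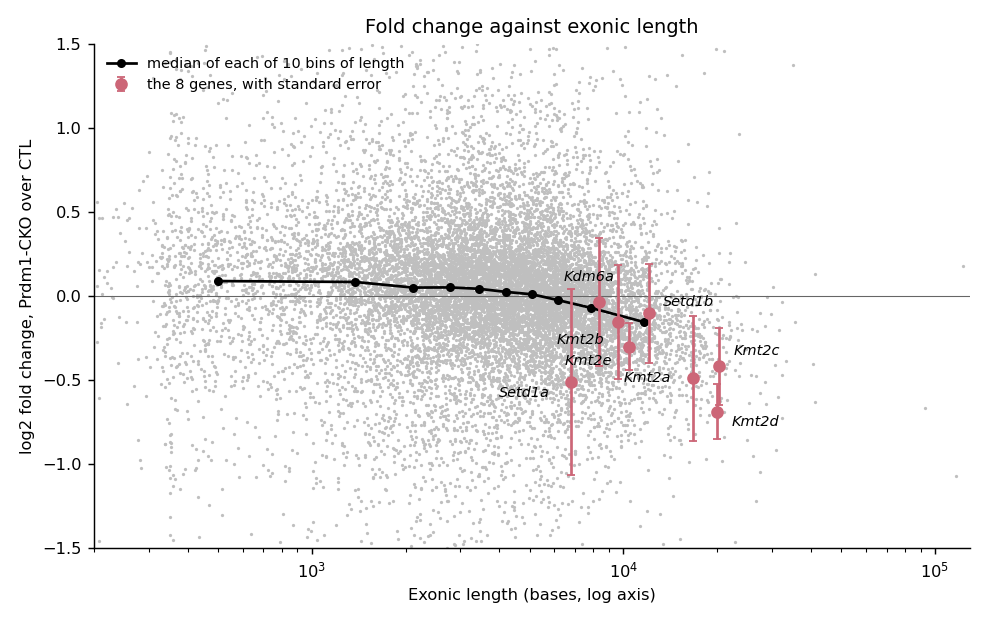
Log2 fold change, *Prdm1*-CKO over CTL (vertical axis), against exonic length in bases (horizontal log axis) for the genes tested (grey, those within 1.5 of 0 and of at least 200 bases), with the median of each of 10 bins of length in black and the 8 genes with their standard errors in red. The black line goes from 0.09 in the shortest bin to -0.15 in the longest, and *Kmt2d* lies the farthest below it of the long genes of the family.

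**Figure D3:**
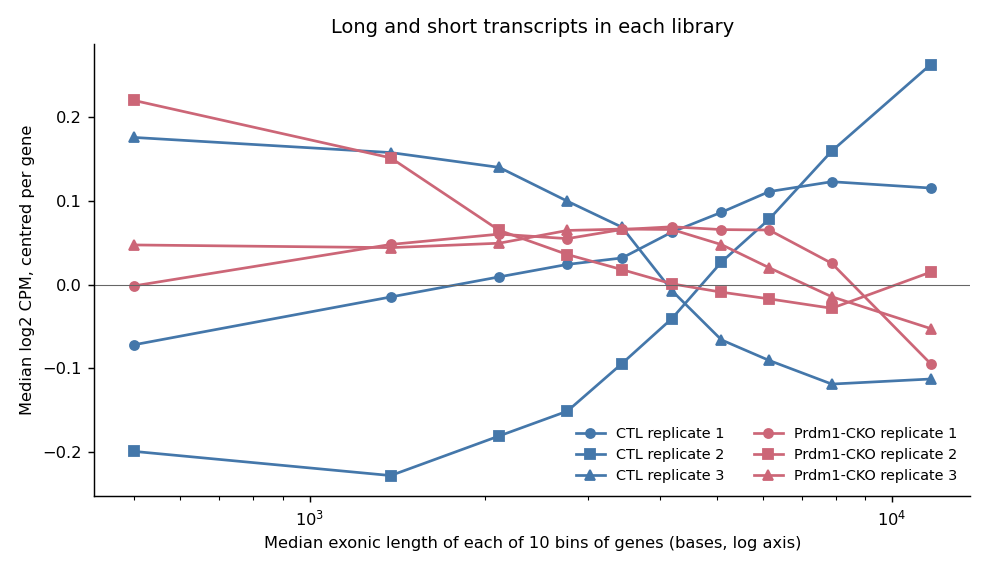
Median centred log2 CPM (vertical axis) of each of 10 bins of genes, placed at its median exonic length (horizontal log axis), with 1 line per library. In the longest bin CTL replicate 2 is the highest and CTL replicate 3 the lowest, on either side of the 3 *Prdm1*-CKO libraries.

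Set beside the 224 tested genes of like exonic length, from 15976 to 24878 bases, *Kmt2d* was still lower, and windows of the same proportion were used for the other genes. Those genes had a median log2 fold change of -0.24, with quartiles at -0.39 and -0.01, and *Kmt2d* lay 0.45 further down. Their median centred log2 CPM was 0.11, 0.33 and -0.04 in the CTL mice and -0.24, 0.04 and -0.10 in the *Prdm1*-CKO mice, which overlapped. For *Kmt2d*, the centred log2 CPM minus this median was -0.03, 0.11 and 0.55 in the CTL mice and -0.29, -0.28 and -0.15 in the *Prdm1*-CKO mice. All *Prdm1*-CKO mice remained below all CTL mice on this scale, with CTL replicate 1 nearest to them. The means were 0.21 ± 0.30 (SD, n = 3) and -0.24 ± 0.07 (SD, n = 3). In a narrower window, within 1.1 times its length, the log2 fold change of *Kmt2d* was 0.43 below their median, and the groups again did not overlap.

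*Kmt2e* relative to 1379 genes of like length was at -0.15, 0.08 and 0.33 in CTL and -0.24, -0.09 and -0.06 in *Prdm1*-CKO mice. CTL replicate 1 fell within the *Prdm1*-CKO range, so the groups that were separate in CPM overlapped here, and its fold change lay between the quartiles of those genes. *Kmt2c*, at 0.11, 0.22 and -0.12 in CTL and -0.22, 0.05 and -0.12 in *Prdm1*-CKO mice, and *Kmt2a*, at -0.23, 0.67 and -0.12 against -0.58, 0.30 and -0.13, also overlapped. Their fold changes lay 0.17 and 0.27 below the medians of their like-length genes, which were -0.24 for *Kmt2c* and -0.22 for *Kmt2a*. *Setd1a* was 0.48 below, with groups that overlapped, *Kmt2b* was 0.05 below, and *Setd1b* and *Kdm6a* were 0.03 and 0.04 above. Of the 8 genes, 1, *Kmt2d*, had groups that stayed apart relative to genes of like length. The share of all genes tested that stay apart on this scale was not computed, so this count has no background beside it. The fold changes of *Kmt2a*, *Kmt2c*, *Kmt2d* and *Setd1a* lay below the lower quartile of their like-length genes. In the narrower window *Kmt2c* lay between the quartiles.

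**Figure D4:**
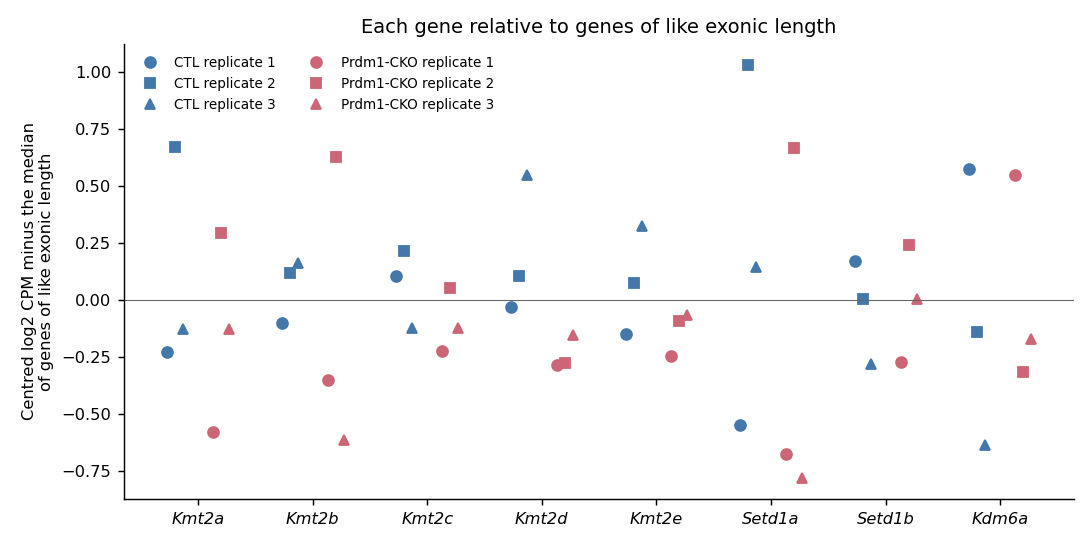
Centred log2 CPM of each of the 8 genes minus the median of tested genes of like exonic length (vertical axis), for each CTL (blue) and *Prdm1*-CKO (red) mouse, with circles, squares and triangles for replicates 1, 2 and 3. For *Kmt2d* all 3 *Prdm1*-CKO mice, from -0.29 to -0.15, lie below all 3 CTL mice, from -0.03 to 0.55, and for the other 7 genes the groups overlap.

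A fit that corrected each library for its trend with exonic length gave log2 fold changes of -0.47 (standard error 0.18) for *Kmt2d*, -0.25 for *Kmt2a*, -0.20 for *Kmt2e*, -0.16 for *Kmt2c*, -0.06 for *Kmt2b* and -0.45 for *Setd1a*, and it put *Setd1b* at 0.06 and *Kdm6a* at 0.07. The median of the 8 genes was then -0.18. With the length of the longest transcript as the measure instead, *Kmt2d* was at -0.33 (standard error 0.18) and *Kmt2e* at -0.17. With the exonic correction and without CTL replicate 2, *Kmt2d* was at -0.56 (standard error 0.19), *Kmt2a* at 0.05, and 5 of the 8 genes were below 0. Over 17 other settings of the fit, *Kmt2d* ran from -0.82 to -0.33, *Kmt2c* from -0.57 to -0.11 and *Kmt2e* from -0.39 to -0.17. The other genes came above 0 in at least 1 of these settings, *Setd1b* in 6 and *Kdm6a* in 8.

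**Figure D5:**
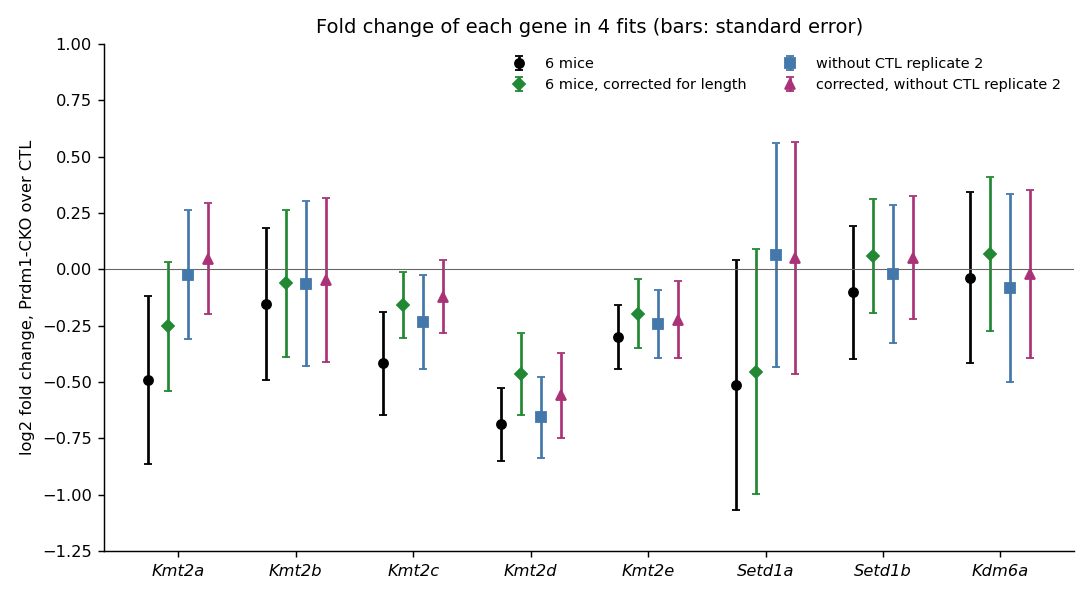
Log2 fold change, *Prdm1*-CKO over CTL (vertical axis, bars for the standard error), of each of the 8 genes from 4 fits, namely 6 mice (black), 6 mice corrected for exonic length (green), without CTL replicate 2 (blue) and corrected without CTL replicate 2 (purple). *Kmt2d* is below 0 in all 4, from -0.69 to -0.47, while *Kmt2a* moves from -0.49 to 0.05.

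The partners of these enzymes did not all share the direction of the 8 genes, and their transcripts were shorter, with median exonic lengths of 3763 bases for the core and 6341 bases for the complex-specific subunits against 11256 bases for the 8 genes. Of the 4 shared core subunits, 4 had a log2 fold change above 0 and none was called, with a median of 0.08, from 0.20 (standard error 0.19) for *Dpy30* to 0.00 (standard error 0.20) for *Rbbp5*. Among 9 tested of 10 complex-specific subunits, 3 were above and 6 below 0, none was called, and the median was -0.17, which was 0.02 without CTL replicate 2. *Paxip1*, of the *Kmt2c* and *Kmt2d* complex, was the highest at 0.30 (standard error 0.20), with 27.7, 34.2 and 34.3 CPM in CTL and 35.6, 41.8 and 41.2 CPM in *Prdm1*-CKO mice, which did not overlap. *Bod1l*, of the *Setd1b* complex, was the lowest at -0.46 (standard error 0.26), with groups that overlapped. *Men1*, which encodes menin, was at 70.6, 76.2 and 83.3 CPM in CTL and 65.7, 54.3 and 68.3 CPM in *Prdm1*-CKO mice, lower in all *Prdm1*-CKO mice, at -0.29 (standard error 0.17). *Pagr1a* had 0 counts in all libraries.

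Other enzymes of the same histone marks and their partner subunits had groups that overlapped in every gene tested. Overlap was the usual outcome. Over all genes tested, every *Prdm1*-CKO mouse lay below every CTL mouse in 3.86% and above in 4.56%. Of 4 tested of 5 other H3K4 methyltransferases, 3 were above 0, with a median of 0.03 that was -0.09 without CTL replicate 1, from *Prdm9* at 0.49 (standard error 0.50) to *Smyd3* at -0.12 (standard error 0.24). Of 5 tested of 6 H3K4 demethylases, 1 was above 0, with a median of -0.22, from *Kdm1a* at 0.18 (standard error 0.34) to *Kdm1b* at -0.58 (standard error 0.65). Leaving out CTL replicate 2 turned that median to 0.02, leaving out CTL replicate 3 put it at -0.35, and the length correction put it at -0.03. The 7 tested genes of H3K27 methylation were all above 0 with a median of 0.12, from *Kdm6b*, the autosomal paralog of *Kdm6a*, at 0.29 (standard error 0.27) to *Rbbp7* at 0.05 (standard error 0.14). None of these genes had an adjusted p under 0.05 in edgeR.

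Other large chromatin regulators, a list of 32 genes with a median exonic length of 14271 bases, resembled the 8 genes in direction. Of these 32, 30 were below 0, with a median of -0.24, 0 had an adjusted p under 0.05 in edgeR and 1 was lower with a p under 0.05 before adjustment. With the correction for exonic length the median was -0.06, and without CTL replicate 2 it was -0.15. Among tested genes of the length of *Kmt2d*, 76.3% were below 0. That 1 gene, *Chd7*, a chromatin remodeler, had the lowest log2 fold change of the list at -0.59 (standard error 0.25), with 73.8, 118 and 63.6 CPM in CTL and 57.2, 60.5 and 51.4 CPM in *Prdm1*-CKO mice. *Arid1b* had the highest, 0.08 (standard error 0.41). In 6 of the 32 all *Prdm1*-CKO mice were below all CTL mice, against 3.86% of all genes tested. The fold change of *Kmt2d*, at -0.69, was below that of every gene of this list.

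By the root mean square difference of centred log2 CPM over the 6 mice, the genes outside the family closest to *Kmt2d*, of 14547 tested, were *9130002K18Rik* (0.093), *Slc2a4rg-ps* (0.10), *Lgals4* (0.12), *Cysltr2* (0.12) and *Gm6867* (0.12), with exonic lengths of 425 to 3126 bases. *Kmt2e* was the closest family gene at 0.21, which would place it at rank 104 among them, *Kmt2c* was at 0.31, and *Kdm6a* was the farthest family gene at 0.75. These distances describe 6 libraries that share the group difference.

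Of the summed marker genes of other cell types, those of CD8 and NK cells and of plasma cells did not overlap between the groups. Both margins were narrow, and the share of sums of other genes that do not overlap was not computed. The summed level of 8 CD8 and NK cell markers was 244 to 329 CPM in CTL and 204 to 238 CPM in *Prdm1*-CKO mice. Of these 8, 6 were below 0, from *Cd8a* at -2.02, on at most 42 counts in a library, to *Eomes* at 0.45. In 3, *Cd8a*, *Gzma* and *Nkg7*, all *Prdm1*-CKO mice were below all CTL mice, against 3.86% of all genes tested. In 1, *Cd8b1* at 0.44, they were all above, against 4.56%. *Nkg7* made the largest part of the sum. All 10 B cell markers had log2 fold changes above 0, from *Fcer2a* at 0.43 to *Pax5* at 1.48, with sums of 47.7 to 148 CPM and 134 to 199 CPM, and *Pax5*, *Fcer2a*, *Ebf1* and *Spib* were at 0 in CTL replicate 2. All 6 plasma cell markers were above 0, from *Sdc1* at 0.03 to *Tnfrsf17* at 1.40, with sums of 407 to 648 CPM and 654 to 875 CPM. The largest parts of these sums were *Jchain* and *Xbp1*, and in each of them the groups overlapped. All 10 macrophage markers were above 0, from *Mrc1* at 0.30 to *C1qc* at 1.49, with sums of 495 to 1572 CPM and 1107 to 1534 CPM. In CTL replicate 2, *Sdc1*, *Tnfrsf17* and *Alas2* were at 0. The erythroid sum was 6.40 to 17.6 CPM against 11.7 to 46.9 CPM, with 4 of 4 tested markers above 0, the lowest *Alas2* and the highest *Hbb-bs* at 1.88. Long nuclear-retained RNAs were below 0 in 4 of 4 tested, from *Kcnq1ot1* at -0.66 to *Neat1* at -0.12, with a median of -0.32 and sums of 2283 to 2743 CPM and 1508 to 2619 CPM. The part of these markers in the values of the 8 genes was not tested.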

How the data were processed

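RNA of sorted Tfh cells was measured in 3 CTL and 3 *Prdm1*-CKO mice by RNA-seq (Smart-seq2, pairs of 25 bp reads). The deposited values are raw counts per gene, which the authors made with featureCounts on GRCm38, and the submitters' processing notes name STAR 2.4.2a, DESeq2 and GRCm38.p6. Strand setting, multiply aligned reads and counting by fragment are not given in the sources used here. Identifiers were matched without version to GENCODE M21, which holds 53274 of 53379, 50604 of them in the same version. *Kmt2d* carries a later version there than in the counts, so its coordinates and length are those of the later version.

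Counts were normalized by TMM, filtered by filterByExpr and fitted with edgeR 4.0.16 in R 4.3.3 (quasi-likelihood test, two-sided, Benjamini-Hochberg adjustment over 14555 genes), with DESeq2 1.42.0 as an alternative. CPM used TMM factors and log2 CPM a prior count of 2, and centred values are relative to the mean of a gene over 6 mice. Exonic length is the union of exons. The length correction was a lowess fit per library with a span of 0.3. Tested on simulated data, edgeR recovered 81.5% of 200 genes changed 4-fold among 14097, with 4 false calls. DESeq2 recovered 92% among 14549, with 45 false calls. A 4-fold change is larger than that of *Kmt2d*, the largest in the family, at a log2 fold change of -0.69. These rates therefore do not show how often a change of that size would be called in these mice. The floor covers counting error only, and p-values weigh the difference between the groups against the spread between mice.

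The 8 genes and the gene lists were chosen with earlier results of these data known. Values are named for all 8, for *Uty*, *Kdm5d*, *Kdm6b* and *Prdm1*, for the highest and lowest gene of each other list and those behind a count of 5 or fewer, and for the 5 genes nearest to *Kmt2d*. Promoters come from RefSeq on GRCm38.p6.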

Additional observations from a re-analysis of the deposited data

How the results depend on the processing

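Calls by edgeR with all 6 mice numbered 0 in both directions, and counts at an unadjusted p under 0.05 (135 higher, 207 lower) moved with the settings. DESeq2's Wald test called 7 genes higher and 2 genes lower after adjustment, with 264 and 417 unadjusted. Without a filter there was 1 higher, with 426 and 510 unadjusted, and more genes were tested. Leaving out each mouse gave 58 (without *Prdm1*-CKO replicate 3) to 580 (without CTL replicate 1) genes higher and 107 (without *Prdm1*-CKO replicate 1) to 617 (without CTL replicate 3) lower, a median of the complex-specific subunits from -0.27 to 0.019 (without CTL replicate 2) and a median of the 8 genes from -0.59 (without *Prdm1*-CKO replicate 2) to -0.07 (without CTL replicate 2). The length correction without CTL replicate 2, chosen after seeing the data like the correction by longest transcript, gave 244 genes higher, a median of -0.034 for the 8 genes and of 0.0095 for the complex-specific subunits. The labels do not say whether same-numbered mice belong together, and the main fit did not pair them. Their residual correlations were 0.16, 0.03 and 0.02, with a mean of 0.07 against -0.03 for other pairs. Of 6 mice, 4 were closest to their own number. A fit with the replicate number as block had 175 higher and 196 lower, 0 called, and *Kmt2d* at -0.68, and together with the length correction 209 higher and *Kmt2d* at -0.44. The cause of these moves was not tested. Of the recomputed counts of called genes, list medians and length trends, 286 stayed within 1 SD, or 1.5 times for a count, and 21 moved. The 286 include the counts of called genes in the gene lists, which were 0 in every setting. With so few genes called anywhere, those counts had little room to move. Of the recomputed values of single genes and of the number below 0, 156 stayed and 5 moved, namely *Kmt2d* under the length corrections (-0.47, -0.44 with the block, and -0.33 by longest transcript, against -0.69), *Kmt2e* by longest transcript (-0.17 against -0.30) and the number below 0 (5 against 8) with the length correction and without CTL replicate 2. The SD was wide for some genes, 0.60 for *Kmt2a* and 0.79 for *Setd1a*. Values of 0.05 for *Kmt2a* and 0.06 for *Setd1a*, on the other side of 0, therefore still counted as stayed. Levels near 3 counts, from 0.169 to 0.444 CPM, cannot be compared, and *Setd1a*, with 65 to 175 counts, is the least precise of the 8.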
